A study of Homo sapiens with 9 samples.

Results

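The integrin and laminin genes were taken as every gene of the deposited table whose symbol is ITGA or ITGB followed by a digit, a letter or both, or LAMA, LAMB or LAMC followed by 1 digit. The rule found 38 of 18430 genes: 18 integrin alpha chains, 8 integrin beta chains, 5 laminin alpha chains, 4 laminin beta chains and 3 laminin gamma chains. They were read in RNA-seq libraries of A375, a human melanoma cell line labelled with the genotype BRAFV600E, which all 3 groups share. The control group was A375 in normal culture. Vemurafenib, which blocks mutant BRAF, was given at 10 µM for 3 days to another group, followed by drug-free culture up to collection at day 7. Cisplatin, which crosslinks DNA, was given at 2 µM for 1 day to the last group, likewise followed by drug-free culture up to day 7. Each group had 3 libraries. All come from 1 cell line, so the line limits what the groups model. Whether the libraries of a group were grown as separate cultures is not stated in the labels, and the p-values therefore rest on a spread between samples that may be technical.

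Integrins are receptors that join the cell to the matrix around it or to other cells, and each is made of an alpha and a beta chain whose pairing sets what it binds. Laminins are heterotrimers of an alpha, a beta and a gamma chain and form the sheet of the basement membrane, to which several integrins bind. Melanoma cells are known for carrying the vitronectin receptor made of ITGAV and ITGB3, and they must pass a laminin-rich basement membrane to leave the epidermis.

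Stretches ahead of transcript starts were read for a few members from RefSeq (GRCh38.p14), because LAMA3 and LAMB3 encode chains of the same laminin trimer, fell together after vemurafenib (values given with the laminin chains) and had the same short motif there. The 250 bases before the start were available for 33 starts of 26 member genes. The AP-1 motif TGANTCA, read on both strands, was in 2 of these 33 windows, 1 of LAMA3 and 1 of LAMB3, and in 6.57% of all 35116 windows. The members' share was thus near that of all windows. The pair was picked with the motif and the falls already seen, so the shared motif is a description only. LAMB3 had 3 windows and the motif was in 1 of them, which lies inside the gene ahead of an internal start, at chr1:209651375-209651624 on the minus strand. Capitals mark the motif.
LAMB3: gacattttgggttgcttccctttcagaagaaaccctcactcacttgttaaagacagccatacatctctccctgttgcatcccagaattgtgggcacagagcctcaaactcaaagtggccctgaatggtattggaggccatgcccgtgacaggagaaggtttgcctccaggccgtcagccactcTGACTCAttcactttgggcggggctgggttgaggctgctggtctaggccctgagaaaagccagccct

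The LAMA3 window, also ahead of a start inside the gene and on the plus strand, held the AP-1 motif at 2 places, shown as stretches of 30 bases at chr18:23872884-23872913 and chr18:23872940-23872969. In each place the AP-1 letters overlap those of the E-box TCANGTG, read on both strands and found in 10.7% of all windows. That E-box was in 5 of the members' windows, those of ITGA1, ITGA6, ITGB7, LAMA3 and LAMB4.
LAMA3, first site: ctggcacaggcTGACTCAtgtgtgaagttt
LAMA3, second site: ccttcctcaccTGAGTCAggcaggcccggg

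LAMC1 is shown beside them because it encodes the gamma chain of most laminins and rose after vemurafenib. Its window, chr1:183023170-183023419 on the plus strand, held none of the motifs read, which says only that these letters are not in it.
LAMC1: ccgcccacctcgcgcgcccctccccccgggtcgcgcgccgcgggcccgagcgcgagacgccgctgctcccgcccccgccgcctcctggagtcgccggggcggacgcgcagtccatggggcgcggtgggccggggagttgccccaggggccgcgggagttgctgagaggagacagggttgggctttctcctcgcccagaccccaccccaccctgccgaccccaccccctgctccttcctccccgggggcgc

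The other motifs read were the TEAD motif GGAATG, in 11.9% of all windows and in those of ITGA5, ITGA10, ITGB1 and LAMA2, and the ETS motif CCGGAAG, in 8.52% of all windows and in those of ITGA6, ITGB5 and LAMA5. ITGA10, the member with the largest rise after cisplatin, held the TEAD letters once, at chr1:145910124-145910153 on the minus strand, where they read as the reverse complement. A match describes the letters and not a bound site.
ITGA10: catcactcctccCATTCCttccaactttat

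Library totals ran from 14481020 to 16038475 estimated counts. Levels are given in CPM (reads scaled to a fixed library size) after TMM scaling, and changes as log2 values from the quasi-likelihood test of edgeR, with p adjusted by Benjamini-Hochberg over the 13989 genes tested. SOX10 (1060 ± 74.4, 1093 ± 93.2 and 836 ± 50.2 CPM, SD, n = 3, in control, vemurafenib and cisplatin) marks the melanocyte lineage in every group, while of its pigment markers MLANA and TYR had 14 counts or fewer over each group. Other markers of the lineage differed in direction. DCT, a pigment enzyme, had its highest mean after vemurafenib (0.0863 ± 0.0978, 275 ± 103 and 0.683 ± 0.326 CPM in the same order), as had MITF, the lineage's regulator (35.8 ± 1.54, 82.0 ± 20.4 and 37.3 ± 3.89 CPM). PMEL (1.72 ± 0.235, 1.68 ± 0.235 and 4.32 ± 0.875 CPM) and TYRP1 (0.459 ± 0.288, 0.373 ± 0.210 and 0.699 ± 0.336 CPM) had theirs after cisplatin. S100B had higher means after both drugs (15.1 ± 1.20, 268 ± 53.2 and 136 ± 25.5 CPM). Vemurafenib replicate 1 stood apart from replicates 2 and 3 by a trend with transcript length: across 13633 genes the Spearman correlation of its log2 ratio to them with effective length was -0.61. Integrin and laminin transcripts are long (median 5290 bases against 3002 for all), and 28 of the 31 tested members were lower in replicate 1 than in the mean of replicates 2 and 3, by more than 1 log2 unit in 5. The part of this library in each result was not tested, and values without it are given for some of the results.

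**Figure D1:**
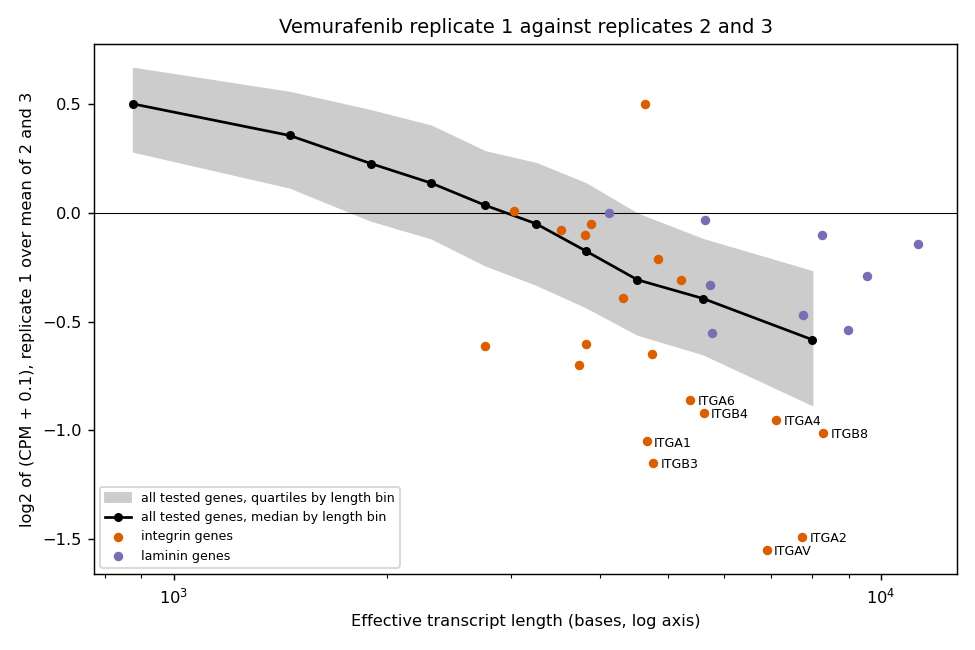
Each point is 1 of 29 tested integrin (orange) or laminin (purple) genes, with its effective transcript length in bases on a log axis and the log2 ratio of vemurafenib replicate 1 over the mean of replicates 2 and 3 (CPM + 0.1); the black line and grey band are the median and quartiles of all tested genes in 10 bins of length. The median falls from 0.50 in the shortest bin to -0.58 in the longest, and ITGAV (-1.55) and ITGA2 (-1.49) lie farthest below it.

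After vemurafenib most of the family's members that changed were lower than in control. Of 31 members tested, 17 fell and 5 rose. That is 54.8% lower and 16.1% higher, where 22.9% of all genes tested were called lower and 22% higher. The median log2 change was -0.51 over the members and 0.01 over all genes. Among integrins 11 of 20 fell and 2 rose, and among laminins 6 of 11 fell and 3 rose. Scaled by total counts alone, the share of all called genes that were higher moved from 49.1% to 60.0%, with the median of all genes at 0.11, and the members then gave 15 lower and 5 higher.

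Cisplatin gave 9 members lower and 5 higher against the same controls. These are 29% and 16.1% of the 31 tested, where 23.5% of all genes were called lower and 22.7% higher. The share of members called lower is near that background. Their median log2 change was -0.27, with 0.00 over all genes. Against each other, vemurafenib was lower than cisplatin in 15 members (48.4%) and higher in 4 (12.9%), where all genes gave 20.8% lower and 23% higher. The member median of that comparison was -0.52 and that of all genes was 0.03. The 3 comparisons share libraries, so they are set side by side and not against one another. In bulk samples fewer cells of a type and less RNA per cell cannot be told apart.

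**Figure D2:**
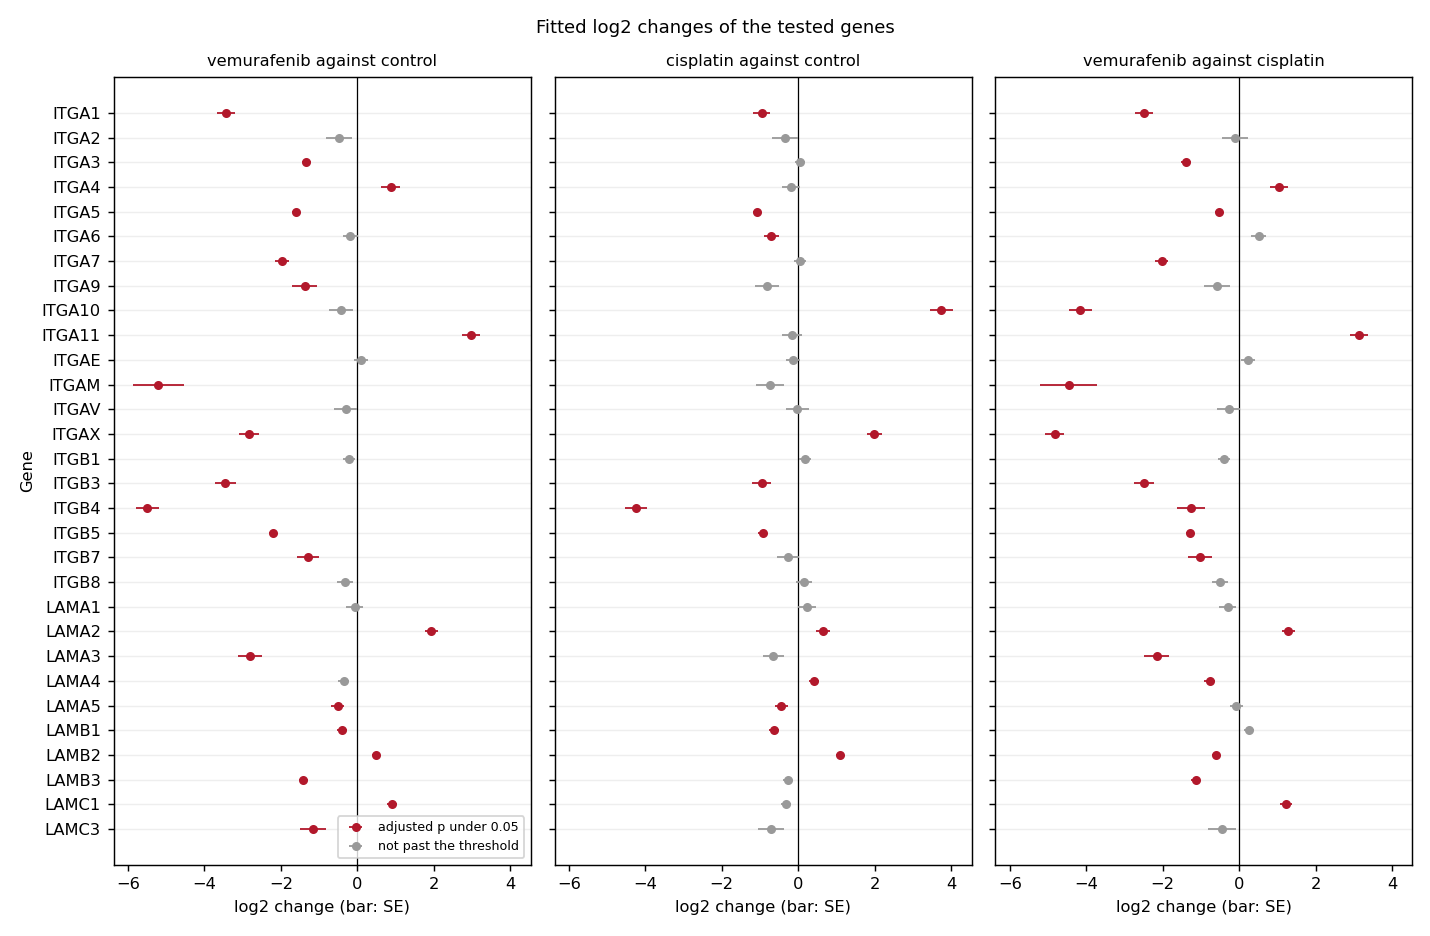
Fitted log2 changes of 30 of the 31 tested genes in the 3 comparisons, with bars of 1 SE; red points have an adjusted p under 0.05. In each panel more red points lie to the left of 0 than to the right, and the farthest left against control are ITGB4 (-5.49 after vemurafenib and -4.24 after cisplatin).

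The vitronectin-binding beta chains ITGB3 and ITGB5 fell after both drugs, while the alpha chain they share, ITGAV, passed no test. ITGB3, which joins ITGAV on tumour cells and ITGA2B on platelets, read 651, 690 and 618 CPM in control replicates 1 to 3. It read 32.9, 64.2 and 82.4 CPM after vemurafenib and 402, 328 and 280.3 CPM after cisplatin. The 3 groups did not overlap, and vemurafenib was lowest. The fitted level was 10.9-fold lower after vemurafenib (log2 change -3.45, SE 0.28, adjusted p = 2.2e-06) and 1.94-fold lower after cisplatin (-0.95, SE 0.25, adjusted p = 0.00896). Between the drugs ITGB3 was lower after vemurafenib (-2.49, SE 0.27, adjusted p = 1.76e-05). Without vemurafenib replicate 1 it changed by -3.15 against control (adjusted p = 6.28e-08) and -2.20 against cisplatin (adjusted p = 4.47e-07). The cisplatin call was lost in 3 of the limma fits on log2 TPM (adjusted p from 0.0506 to 0.0938). In GENCODE v29, 2266 of the 4394 exon bases of ITGB3 are shared with a second annotated gene on the same strand, AC068234.1, so reads there could be counted for either.

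ITGB5, the other vitronectin-binding partner of ITGAV, read 283, 255 and 265 CPM in control, 58.0, 53.1 and 62.4 CPM after vemurafenib and 131, 134 and 158 CPM after cisplatin. Again no group overlapped another. ITGB5 changed by -2.21 log2 units after vemurafenib (SE 0.11, adjusted p = 1.09e-07), -0.93 after cisplatin (SE 0.11, adjusted p = 3.85e-05) and -1.28 between the drugs (SE 0.11, adjusted p = 2.98e-06).

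ITGAV is the alpha chain shared by several beta chains. It read 228, 257 and 253 CPM in control, 87.0, 236 and 275 CPM after vemurafenib and 238, 232 and 252 CPM after cisplatin. Vemurafenib replicate 1 was far below all other libraries, and the other 2 vemurafenib libraries lay on either side of the control mean of 246 CPM. The log2 change was -0.30 after vemurafenib (SE 0.30, adjusted p = 0.438), or 0.05 without replicate 1 (adjusted p = 0.624), and -0.03 after cisplatin (adjusted p = 0.94). ITGB8, which with ITGAV releases latent TGF-beta, showed the same low library, at 126 CPM where the other 8 read between 239.5 and 308 CPM. Its change passed no test against control (-0.33, adjusted p = 0.228, after vemurafenib, or -0.07 without replicate 1, adjusted p = 0.535, and 0.16, adjusted p = 0.578, after cisplatin). Between the drugs it missed the threshold (-0.49, adjusted p = 0.0841) and passed it without vemurafenib replicate 1 (-0.22, adjusted p = 0.0475), replicate 2 (0.041) or replicate 3 (0.0338).

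The fibronectin receptor is made of ITGA5 and ITGB1, and of these ITGA5 fell. ITGA5 read 628, 734 and 629 CPM in control, 211, 222 and 224 CPM after vemurafenib and 314, 329 and 298 CPM after cisplatin. All 3 groups were apart. Its log2 change was -1.60 after vemurafenib (SE 0.10, adjusted p = 4.62e-07), -1.08 after cisplatin (SE 0.10, adjusted p = 6.94e-06) and -0.52 between them (SE 0.10, adjusted p = 0.00154).

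ITGB1, the common beta chain that pairs with most alpha chains read here, was 593, 602 and 615 CPM in control. It was 368, 566 and 627 CPM after vemurafenib and 663, 671 and 711 CPM after cisplatin. Every cisplatin library was above every control library, and vemurafenib replicate 1 was the lowest. The change was -0.21 after vemurafenib (SE 0.16, adjusted p = 0.309), and -0.02 without replicate 1 (adjusted p = 0.88). After cisplatin it was 0.18 (SE 0.16, adjusted p = 0.401), and it passed the test without vemurafenib replicate 1, which enters the shared estimate of spread (0.18, adjusted p = 0.0447). Between the drugs it was -0.39 (SE 0.16, adjusted p = 0.0714), and passed without vemurafenib replicate 3 (adjusted p = 0.0139) or with DESeq2 (0.0422).

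The 4 collagen-binding alpha chains, which all pair with ITGB1, each followed a different course. ITGA1, a receptor for basement membrane collagen, read 886, 918 and 960 CPM in control. It read 49.3, 100.3 and 104 CPM after vemurafenib and 500.0, 440.4 and 486 CPM after cisplatin. The groups were apart, with vemurafenib 10.9-fold below control (log2 change -3.44, SE 0.24, adjusted p = 7.07e-07). The cisplatin change was -0.95 (SE 0.22, adjusted p = 0.00365), lost in 2 of the limma fits on log2 TPM (adjusted p = 0.0599 and 0.0743), and that between the drugs was -2.49 (SE 0.23, adjusted p = 4.92e-06). Without vemurafenib replicate 1 the vemurafenib change was -3.17 against control (adjusted p = 4.25e-09) and -2.22 against cisplatin (adjusted p = 7.07e-09). ITGA1 shares 475 exon bases of 10757 with PELO, which lies within it on the same strand.

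ITGA2, the collagen receptor also known from platelets, varied widely within the groups: 190 to 289 CPM in control, 76.2 to 263 after vemurafenib and 150 to 215 after cisplatin. Its change was -0.47 after vemurafenib (SE 0.34, adjusted p = 0.281). Without vemurafenib replicate 1 it was -0.12 (adjusted p = 0.657), and without replicate 2 it passed (adjusted p = 0.0237).

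ITGA10, a collagen receptor of cartilage, read 6.98, 6.37 and 6.93 CPM in control, 3.64, 3.43 and 8.08 CPM after vemurafenib and 113, 94.0 and 64.5 CPM after cisplatin. Every cisplatin library stood above every other library. ITGA10 rose 13.4-fold after cisplatin (log2 change 3.74, SE 0.30, adjusted p = 1.66e-06), and vemurafenib was lower than cisplatin by a log2 change of -4.16 (SE 0.30, adjusted p = 8.04e-07). Against control the vemurafenib change was -0.42 (SE 0.31, adjusted p = 0.309), and it passed without vemurafenib replicate 3 (adjusted p = 0.0115). An antisense gene shares 122 of its 5269 exon bases, and the labels do not say whether strand was kept.

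ITGA11, the receptor for fibrillar collagen known from fibroblasts, read 1.63, 1.53 and 1.93 CPM in control. It read 11.5, 13.2 and 15.3 CPM after vemurafenib and 1.45, 1.09 and 2.00 CPM after cisplatin. The vemurafenib libraries were above all others, while control and cisplatin overlapped. ITGA11 rose 7.83-fold after vemurafenib (log2 change 2.97, SE 0.23, adjusted p = 1.46e-06) and was higher than after cisplatin (3.13, SE 0.23, adjusted p = 8.3e-07). After cisplatin its log2 value was -0.16, short of the threshold (adjusted p = 0.649). Fibroblast markers summed to 21.3 to 25.5 CPM in control, 30.8 to 42.2 CPM after vemurafenib and 17.1 to 30.2 CPM after cisplatin. All 6 were in the table and none was at 0 in every library. Of the 5 tested, 2 were higher and 1 lower after vemurafenib, and 2 were higher and 1 lower after cisplatin. Their part in the ITGA11 result was not tested.

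**Figure D3:**
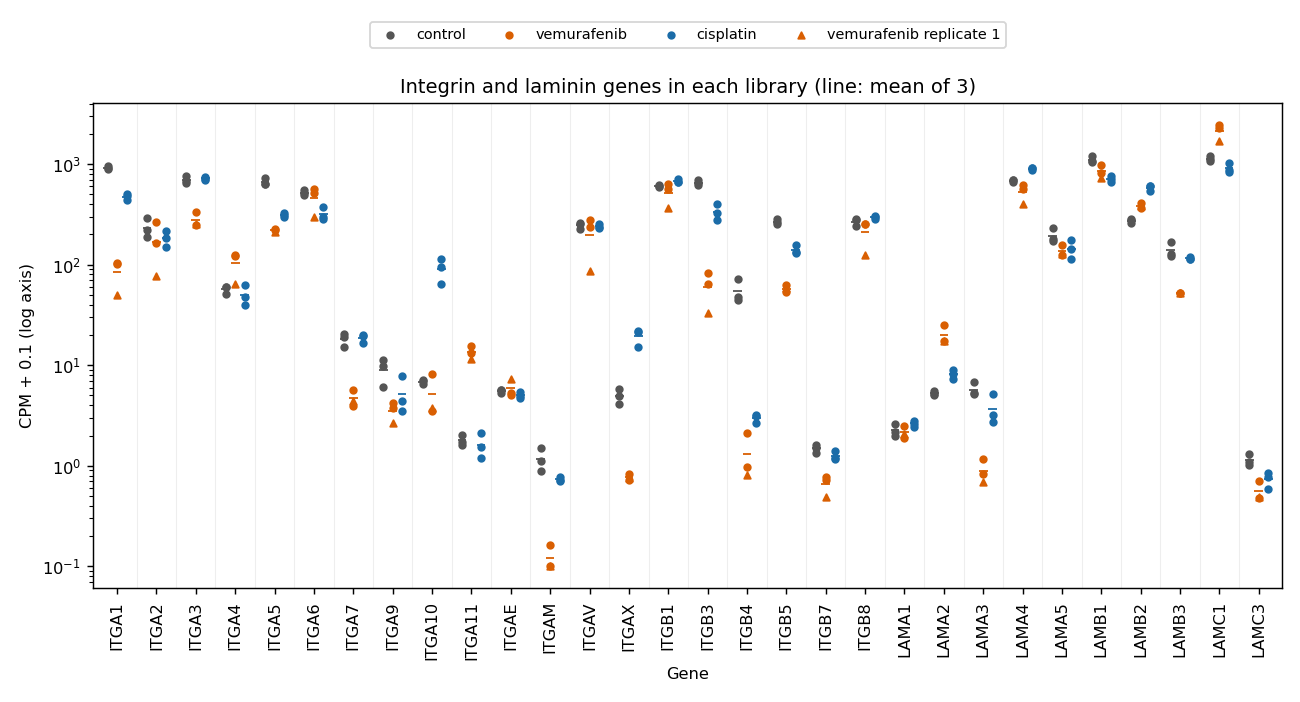
CPM + 0.1 on a log axis for 30 of the 31 tested genes in each library; points are libraries, short lines the mean of 3, and triangles vemurafenib replicate 1. ITGA10 and ITGAX stand above the other groups after cisplatin, ITGA11, LAMA2 and LAMC1 after vemurafenib, and ITGB4 lies far below control after both drugs.

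Laminin-binding integrins include ITGA3, ITGA6 and ITGA7 with ITGB1, and ITGA6 with ITGB4. ITGB4 had the lowest fitted change of the 31 tested members after each drug. This chain anchors the hemidesmosome to the keratin network of epithelial cells. It read 44.2, 72.4 and 48.0 CPM in control. After vemurafenib it read 0.715, 0.873 and 2.02 CPM, and after cisplatin 3.05, 2.58 and 3.06 CPM. No group overlapped another. The log2 change was -5.49 after vemurafenib (SE 0.31, adjusted p = 2.15e-07, with -5.23 without replicate 1) and -4.24 after cisplatin (SE 0.28, adjusted p = 3.64e-07), or 45-fold and 18.9-fold lower. Between the drugs it was -1.25 (SE 0.37, adjusted p = 0.0158), a call lost without vemurafenib replicate 1 (-0.99, adjusted p = 0.0615) or replicate 2 (adjusted p = 0.0516), with a highest adjusted p of 0.121 over the alternatives.

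ITGA6, the alpha partner of ITGB4, did not follow it after vemurafenib. Its levels were 491 to 551 CPM in control, 296, 513 and 562 CPM in vemurafenib replicates 1 to 3, and 284 to 376 CPM after cisplatin. The vemurafenib change was -0.18 (SE 0.20, adjusted p = 0.491), or 0.05 without replicate 1 (adjusted p = 0.722), and that after cisplatin was -0.70 (SE 0.20, adjusted p = 0.0145). The cisplatin call was lost without control replicate 3 (adjusted p = 0.0514), cisplatin replicate 1 (0.0605) or cisplatin replicate 2 (0.056), and its highest adjusted p over the alternatives was 0.164. Between the drugs the change was 0.51 (SE 0.20, adjusted p = 0.0579), and it passed without vemurafenib replicate 1 (0.75, adjusted p = 0.000182) or cisplatin replicate 3 (adjusted p = 0.0474). It also passed with DESeq2 (adjusted p = 0.0438) and without the count filter (0.0493).

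ITGA3, a receptor for epidermal laminin, fell after vemurafenib and passed no test after cisplatin. It read 646, 756 and 682 CPM in control, 251, 245 and 335 CPM after vemurafenib and 695, 713 and 749 CPM after cisplatin. Cisplatin lay within the control range, and vemurafenib below both. ITGA3 changed by -1.33 log2 units after vemurafenib (SE 0.13, adjusted p = 1.06e-05), 0.05 after cisplatin (SE 0.13, adjusted p = 0.776) and -1.38 between them (SE 0.13, adjusted p = 7.22e-06), the last being the test of the difference.

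ITGA7, the laminin receptor best known from muscle, had the same order at a lower level. It read 20.4, 18.9 and 15.0 CPM in control, 4.36, 5.55 and 3.79 CPM after vemurafenib and 20.1, 19.3 and 16.7 CPM after cisplatin. Vemurafenib was below both other groups, which overlapped. ITGA7 changed by -1.98 log2 units after vemurafenib (SE 0.18, adjusted p = 4.95e-06), 0.05 after cisplatin (adjusted p = 0.828) and -2.03 between the drugs (SE 0.18, adjusted p = 3.64e-06).

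The chains best known from leukocytes were low in all libraries, and ITGAX moved in opposite directions after the drugs. ITGAX, which pairs with ITGB2 on myeloid cells, read 5.67, 4.84 and 3.98 CPM in control. It read 0.650, 0.624 and 0.734 CPM after vemurafenib and 21.7, 21.1 and 15.0 CPM after cisplatin. The groups were fully apart. Against control its log2 change was -2.84 after vemurafenib (SE 0.26, adjusted p = 6.07e-06) and 1.99 after cisplatin (SE 0.19, adjusted p = 7.83e-06), and between the drugs it was -4.83 (SE 0.25, adjusted p = 5.88e-08). ITGB2, its only beta partner, was not tested and summed to 30 counts in control, 12 after vemurafenib and 16 after cisplatin. Leukocyte markers, 8 of 10 in the table, summed to 8.15 to 11.1 CPM in control, 4.55 to 9.36 CPM after vemurafenib and 33.2 to 53.1 CPM after cisplatin. LYZ, lysozyme, made up most of that sum (7.89 ± 1.25, 5.75 ± 2.46 and 40.6 ± 10.2 CPM, SD, n = 3), while PTPRC, which defines leukocytes, had 0, 12 and 14 counts over the groups. The part of other cells in the ITGAX result was not tested.

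ITGAM, another myeloid partner of ITGB2, read 0.783, 1.39 and 1.03 CPM in control and 0.623, 0.679 and 0.599 CPM after cisplatin. After vemurafenib only 1 count was seen, in replicate 2. Over the groups that is 49 counts in control against 1, a ratio of 50.9 with a 95% exact interval of 8.71 to 2050, which covers counting error only (adjusted p = 7.28e-05). Against cisplatin, with 28 counts, the ratio was 30.2 (5 to 1237, adjusted p = 0.000458). The difference between cisplatin and control did not pass (-0.74, SE 0.37, adjusted p = 0.122).

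ITGA4, which binds VCAM1 and fibronectin, rose after vemurafenib. It read 50.5, 59.9 and 60.0 CPM in control, 63.7, 123 and 124 CPM after vemurafenib and 40.0, 47.4 and 63.1 CPM after cisplatin. Each vemurafenib library was above every other library, replicate 1 by the least. The log2 change was 0.87 (SE 0.24, adjusted p = 0.0107) against control, or 1.12 without replicate 1 (adjusted p = 6.06e-05), and 1.04 against cisplatin (SE 0.24, adjusted p = 0.00388). In 2 of the limma fits on log2 TPM the call against control was lost (adjusted p = 0.0643 and 0.0864). After cisplatin the change was -0.18 (adjusted p = 0.562).

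ITGA9, close to ITGA4 in sequence and a receptor for tenascin-C, read 11.3, 9.69 and 5.91 CPM in control. It read 2.54, 4.12 and 3.67 CPM after vemurafenib and 7.69, 4.28 and 3.40 CPM after cisplatin. Vemurafenib lay below control, and cisplatin overlapped both. ITGA9 changed by -1.38 log2 units after vemurafenib (SE 0.33, adjusted p = 0.00509) and -0.57 between the drugs (adjusted p = 0.198). After cisplatin it was -0.81 (SE 0.32, adjusted p = 0.0563), which passed without control replicate 3 (adjusted p = 0.0267), vemurafenib replicate 1 (0.0325) or cisplatin replicate 1 (0.0106). It also passed with DESeq2 (adjusted p = 0.038) and in the fit of the 2 groups alone (0.0358).

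ITGB7, the beta partner of ITGA4 and ITGAE on lymphocytes, read 1.24, 1.53 and 1.41 CPM in control, 0.390, 0.624 and 0.673 CPM after vemurafenib and 1.11, 1.29 and 1.07 CPM after cisplatin. Vemurafenib was below both other groups. Its log2 change was -1.29 against control (SE 0.30, adjusted p = 0.0046) and -1.02 against cisplatin (SE 0.31, adjusted p = 0.0197), the latter lost without vemurafenib replicate 1 (-0.82, adjusted p = 0.055) or cisplatin replicate 2 (adjusted p = 0.0764). Of its 2867 exon bases 1474 are shared with ZNF740 on the opposite strand, and without a stated strand these reads cannot be told apart. ITGAE, which binds E-cadherin, lay between 4.62 and 7.22 CPM in all libraries and passed no test (0.09 after vemurafenib, adjusted p = 0.709, or -0.10 without replicate 1, adjusted p = 0.655).

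The laminin chains moved in both directions, and each chain class held members that rose and members that fell after vemurafenib. LAMA3 and LAMB3, chains of the epidermal laminin, were lower after vemurafenib. LAMA3 read 5.02, 6.64 and 5.20 CPM in control, 0.585, 1.06 and 0.734 CPM after vemurafenib and 5.05, 3.12 and 2.60 CPM after cisplatin. Vemurafenib was below all other libraries, and cisplatin replicate 1 lay in the control range. The log2 change was -2.81 after vemurafenib (SE 0.32, adjusted p = 3e-05) and -2.16 against cisplatin (SE 0.33, adjusted p = 0.000263). After cisplatin it was -0.65 (SE 0.27, adjusted p = 0.0672), which passed without cisplatin replicate 1 (adjusted p = 0.015) or vemurafenib replicate 1 (0.0411).

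LAMB3 was the most abundant of these chains per length, at 64.1 ± 10.7 TPM in control (SD, n = 3). In CPM it read 121, 166 and 129 in control, 52.2, 52.4 and 51.8 after vemurafenib and 118, 114 and 114 after cisplatin. Every cisplatin library was below every control library and every vemurafenib library lower still. LAMB3 changed by -1.41 log2 units after vemurafenib (SE 0.12, adjusted p = 3.38e-06) and -1.14 against cisplatin (SE 0.12, adjusted p = 1.58e-05). After cisplatin it missed the threshold (-0.27, SE 0.12, adjusted p = 0.0826) and passed it without control replicate 1 (adjusted p = 0.0448) or vemurafenib replicate 1 (0.0364).

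LAMC1, the gamma chain of most laminins, rose after vemurafenib from a high level. It read 1065, 1217 and 1126 CPM in control, 1705, 2424 and 2288 CPM after vemurafenib and 828, 883 and 1024 CPM after cisplatin. The groups were apart, with cisplatin lowest. LAMC1 changed by 0.91 after vemurafenib (SE 0.14, adjusted p = 0.000349), 1.05 without replicate 1, and 1.23 against cisplatin (SE 0.15, adjusted p = 3.8e-05). After cisplatin it was -0.32 (SE 0.14, adjusted p = 0.0906), which passed without vemurafenib replicate 1 (adjusted p = 0.0107). LAMC3, a gamma chain of low level here, read 0.978, 0.929 and 1.22 CPM in control, 0.390, 0.374 and 0.612 CPM after vemurafenib and 0.485, 0.747 and 0.666 CPM after cisplatin. Both drug groups lay below control. Only the vemurafenib change passed (-1.17, SE 0.34, adjusted p = 0.0159), and not without control replicate 3 (adjusted p = 0.0576) or vemurafenib replicate 2 (0.0553), with a highest adjusted p of 0.231 over the alternatives. After cisplatin the change was -0.71 (adjusted p = 0.0965), and between the drugs -0.45 (adjusted p = 0.366).

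LAMB2 and LAMA2, chains of the laminins of muscle and nerve, rose after both drugs in different order. LAMB2 read 285, 280 and 257 CPM in control, 381, 412 and 363 CPM after vemurafenib and 540, 599 and 608 CPM after cisplatin. LAMA2 read 5.02, 5.44 and 4.94 CPM in control, 17.2, 24.8 and 17.4 CPM after vemurafenib and 7.27, 8.14 and 8.79 CPM after cisplatin. For both genes no group overlapped another. The highest group was cisplatin for LAMB2 and vemurafenib for LAMA2. LAMB2 changed by 0.49 after vemurafenib (SE 0.10, adjusted p = 0.002), 1.09 after cisplatin (SE 0.10, adjusted p = 6.45e-06) and -0.60 for vemurafenib against cisplatin (SE 0.10, adjusted p = 0.000545). LAMA2 changed by 1.94 (SE 0.18, adjusted p = 5.04e-06), 0.65 (SE 0.18, adjusted p = 0.0118) and 1.29 (SE 0.17, adjusted p = 8.47e-05) in the same comparisons. The cisplatin call of LAMA2 was lost in 3 of the limma fits (adjusted p from 0.063 to 0.0827).

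The remaining laminin chains changed by less than 1 log2 unit. LAMB1, the beta chain of most laminins, ran from 1051 to 1200 CPM in control, 723 to 991 after vemurafenib and 671 to 758 after cisplatin, so both drug groups lay below control. Its log2 change was -0.39 after vemurafenib (SE 0.13, adjusted p = 0.0277) and -0.63 after cisplatin (SE 0.13, adjusted p = 0.00175). The vemurafenib call was lost without control replicate 1 (adjusted p = 0.0525), control replicate 2 (0.107) or vemurafenib replicate 3 (0.0521), and its highest adjusted p over the alternatives was 0.262. Between the drugs LAMB1 passed only without vemurafenib replicate 1 (0.35, adjusted p = 0.013, against 0.25, adjusted p = 0.138).

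LAMA4, the alpha chain of the laminins of blood vessels, ran from 661 to 690 CPM in control, 404 to 625 after vemurafenib and 881 to 918 after cisplatin. The groups did not overlap. Vemurafenib was lower than cisplatin (-0.77, SE 0.14, adjusted p = 0.00101). Against control the vemurafenib change was -0.36 (SE 0.14, adjusted p = 0.0564), or -0.20 without replicate 1 (adjusted p = 0.0501). It passed with DESeq2 (adjusted p = 0.0324), with the replicate number as a block (0.0441) and without vemurafenib replicate 3 (0.0111). The cisplatin change was 0.41 (SE 0.14, adjusted p = 0.0326), and leaving out any 1 control or cisplatin library lifted its adjusted p to between 0.0652 and 0.0914. Endothelial markers, all 5 in the table, summed to 18.5 to 23.6 CPM in control, 9.24 to 28.5 after vemurafenib and 53.5 to 61.1 after cisplatin. KDR made up most of that sum (53.6 ± 3.34 CPM after cisplatin, SD, n = 3) and CDH5 had 0, 0 and 1 counts, and their part in the LAMA4 values was not tested.

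LAMA5, the alpha chain of most adult basement membranes, ran from 173 to 230 CPM in control, 125 to 157 after vemurafenib and 114 to 175 after cisplatin. Its falls were small and depended on single libraries and on the processing. The vemurafenib change was -0.51 (SE 0.17, adjusted p = 0.0263), lost without control replicate 2 (adjusted p = 0.125) or vemurafenib replicate 3 (0.0634), with a highest value of 0.198 over the alternatives. The cisplatin change was -0.44 (SE 0.17, adjusted p = 0.0493), lost without control replicate 1 (0.0514), control replicate 2 (0.205), control replicate 3 (0.0704), vemurafenib replicate 3 (0.0505), cisplatin replicate 1 (0.19) or cisplatin replicate 2 (0.117), with a highest value of 0.251. Both calls were also lost with total counts alone (adjusted p = 0.0703 after vemurafenib and 0.0921 after cisplatin) and in every limma fit. The cisplatin call was lost too with upper-quartile scaling (0.0798) and a filter of 1 CPM in 3 libraries (0.0509). LAMA1, the alpha chain of early embryonic basement membranes, lay between 1.81 and 2.71 CPM in all libraries and passed no test (-0.07 after vemurafenib, adjusted p = 0.823, and 0.23 after cisplatin, adjusted p = 0.425).

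A set of 7 members was below the count filter, and their values are given only as summed counts over 3 libraries in control, vemurafenib and cisplatin. ITGA2B, the platelet partner of ITGB3, had 4, 15 and 4 counts, so the vitronectin-binding ITGB3 was read here with almost no ITGA2B beside it. ITGA8, which binds nephronectin, had 5, 0 and 1 counts. ITGAD and ITGAL, further partners of ITGB2, had 3, 0 and 2 and 0, 1 and 1 counts. ITGB6, an epithelial partner of ITGAV, had 6, 2 and 17 counts and LAMB4 had 5, 18 and 7. No fold is given for these.

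Per length, in TPM (transcripts scaled to length and library size), a few chains made up nearly all of each class. Each chain's share of the summed TPM of its class is a description with no test. Summed TPM was 1343 ± 80.6 in control, 612 ± 196 after vemurafenib and 991 ± 50.8 after cisplatin for integrin alpha chains (SD, n = 3). For beta chains it was 809.5 ± 9.44, 406.5 ± 143 and 671 ± 17.0. The vemurafenib SD was the widest of the 3 groups in both sums. Vemurafenib replicate 1 was the lowest library in both. Replicates 1 to 3 gave 387, 708 and 742 TPM for alpha chains and 243, 467 and 509 TPM for beta chains.

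The beta chain make-up shifted toward ITGB1. Its share was 36.7, 36.9 and 39.1% in the control libraries, 70.1, 71.0 and 70.8% after vemurafenib and 51.8, 54.3 and 56.6% after cisplatin. ITGB3 held 31.6, 33.2 and 30.8% in control, 4.92, 6.31 and 7.30% after vemurafenib and 24.6, 20.8 and 17.5% after cisplatin. Neither share overlapped between groups. The level of ITGB1 itself passed no test, so the shift in share goes with the lower levels of ITGB3 and ITGB5 in the same sum. Vemurafenib replicate 1 lay with replicates 2 and 3 in both shares.

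Among alpha chains, ITGA1 (27.7 ± 0.991%) and ITGA5 (26.5 ± 1.60%) led in control (SD, n = 3). After vemurafenib ITGA6 had the highest mean, 28.1 ± 2.86%, and ITGA5 held 22.3 ± 5.92%, but in replicate 1 ITGA5 (29.1%) was above ITGA6 (24.9%). The ITGA6 share compares with 13.6 ± 1.07% in control and 12 ± 1.55% after cisplatin, and ITGA1 held 5.95 ± 1.06% after vemurafenib. After cisplatin ITGA3 led with 29.9 ± 0.648%, against 20.3 ± 0.893% in control and 19.9 ± 4.16% after vemurafenib. ITGA10, for all its rise, held 3.87 ± 1.09% after cisplatin. ITGA11 held 0.848 ± 0.111% after vemurafenib. The genes with the largest rises were thus small parts of the alpha chain sum.

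Among laminins, LAMA4 held 86.4 ± 1.90% of the alpha sum in control, 85.8 ± 2.72% after vemurafenib and 92.0 ± 1.65% after cisplatin. LAMC1 held 99.3 ± 0.0637, 99.9 ± 0.00851 and 99.7 ± 0.0623% of the gamma sum. The beta sum changed its make-up: LAMB2 held 17.7 ± 1.26% in control, 30.1 ± 2.42% after vemurafenib and 40.4 ± 0.818% after cisplatin, and LAMB1 held 70.0 ± 0.369, 64.3 ± 3.01 and 48.7 ± 0.737%. LAMB3 held 12.3 ± 1.18, 5.58 ± 0.656 and 10.9 ± 0.769%. The gamma sum was 278 ± 20.3 TPM in control, 567 ± 163 after vemurafenib and 235.5 ± 32.7 after cisplatin, while the beta sum was 519 ± 36.8, 465 ± 104 and 510 ± 40.4 TPM. In vemurafenib replicates 1 to 3 the gamma sum was 381, 685 and 634.5 TPM and the beta sum 358, 565 and 473 TPM. LAMA4, LAMB1 and LAMC1 were the most abundant chain of their class in every group.

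**Figure D4:**
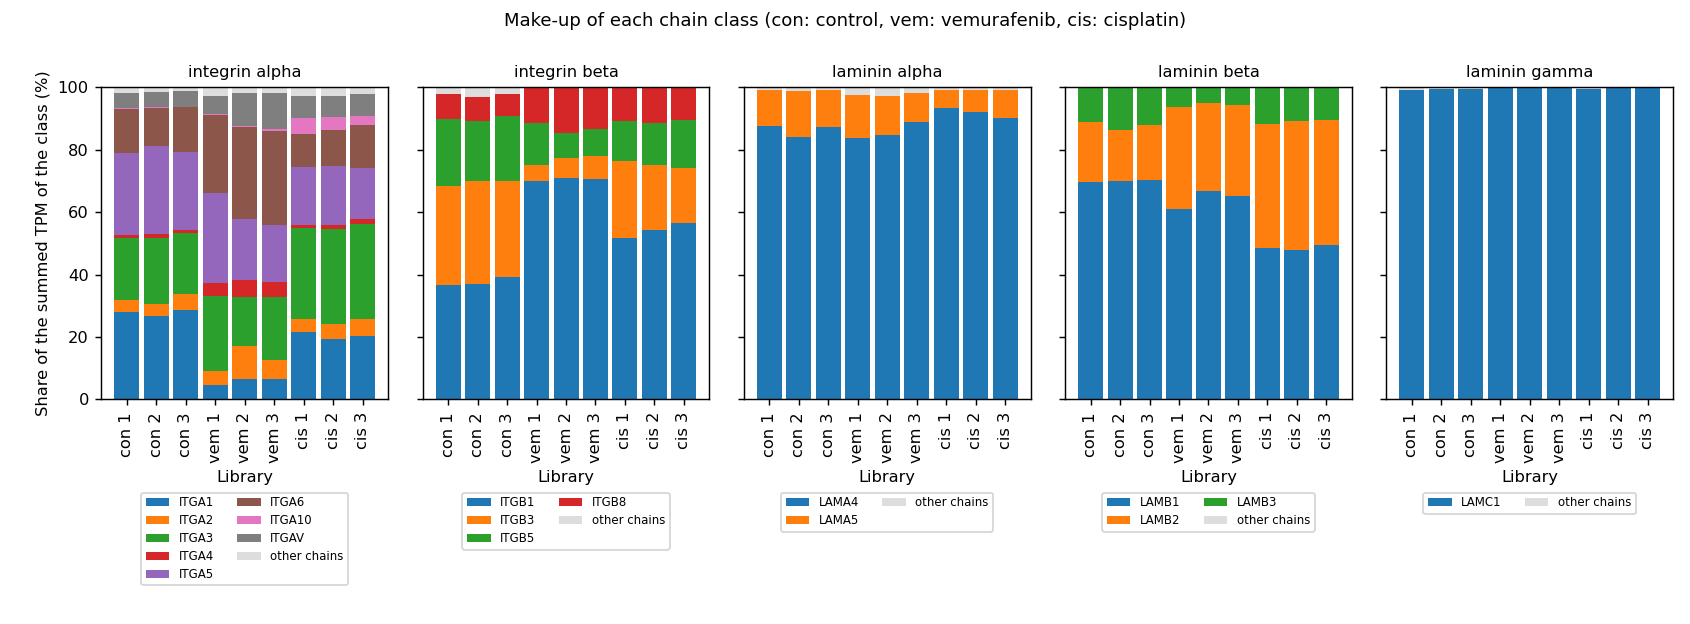
Share of each chain in the summed TPM of its class, in percent, for each of the 9 libraries; chains under 3% in every library are pooled in grey. ITGB1 fills 70.6% of the beta chain bar after vemurafenib against 37.6% in control, and LAMB2 widens from 17.7% in control to 40.4% after cisplatin.

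Genes that work with the family were read from lists of adaptors, membrane partners, other basement membrane components, other laminin receptors and other integrin ligands, with at most 3 genes named in each list and comparison. These lists are read against all tested genes, of which vemurafenib gave 22% higher and 22.9% lower, cisplatin 22.7% higher and 23.5% lower, and the direct drug contrast 23% and 20.8% (medians 0.01, 0.00 and 0.03). Of 38 cytoplasmic adaptors tested, 17 were lower (44.7%) and 6 higher (15.8%) in vemurafenib libraries, and cisplatin gave 20 lower (52.6%) and 3 higher (7.89%), with medians of -0.16 and -0.36. FERMT1, the kindlin that activates integrins through their beta tails, read 598 ± 85.4 CPM in control, 15.6 ± 5.81 after vemurafenib and 98.7 ± 6.88 after cisplatin (SD, n = 3). It fell after both drugs (-5.26, SE 0.24, adjusted p = 8.07e-08, and -2.60, SE 0.21, adjusted p = 2.21e-06) and was lower after vemurafenib than after cisplatin (-2.66, SE 0.22, adjusted p = 2.31e-06). ACTN1, the actinin that ties focal adhesions to actin, fell after vemurafenib (-1.81, SE 0.11), as did NEDD9, a docking protein of focal adhesions (-1.69, SE 0.19). PTK2B, a kinase of the focal adhesion kinase family, rose after cisplatin (1.69, SE 0.18). TNS3, a tensin, was higher after vemurafenib than after cisplatin (2.47, SE 0.13), and PXN, paxillin, was lower (-1.34, SE 0.12). Between the drugs 13 adaptors (34.2%) were higher after vemurafenib and 9 (23.7%) lower (median 0.10).

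Membrane partners moved in both directions. Of 11 tested, vemurafenib gave 3 higher and 3 lower (27.3% each), cisplatin 2 and 2 (18.2% each), and the drugs against each other 3 and 2 (27.3% and 18.2%), all near the shares of all genes (medians -0.05, 0.04 and -0.12). CAV1, caveolin, rose after vemurafenib (0.95, SE 0.14) and fell after cisplatin (-1.08, SE 0.14), with 2.03 between them (SE 0.14). CD82, a tetraspanin, fell after vemurafenib (-1.36, SE 0.18) and was lower there than after cisplatin (-1.61, SE 0.18), and the tetraspanin CD81 rose after vemurafenib (0.68, SE 0.15). After cisplatin SLC3A2, which binds beta tails, fell (-1.16, SE 0.11) and CD63, a tetraspanin of endosomes, rose (0.68, SE 0.12). SLC3A2 was higher after vemurafenib than after cisplatin (0.62, SE 0.11).

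Other basement membrane components gave 11 lower (50%) and 6 higher (27.3%) of 22 tested in vemurafenib libraries, where all genes gave 22.9% and 22%. Cisplatin gave 10 lower (45.5%) and 7 higher (31.8%), against 23.5% and 22.7% of all genes, and from drug to drug there were 9 each way (40.9%), against 20.8% and 23%. The medians were -0.61, -0.06 and 0.44. TINAGL1, a basement membrane glycoprotein, fell after vemurafenib from 405 ± 34.3 to 16.7 ± 2.89 CPM (SD, n = 3, log2 change -4.60, SE 0.15, adjusted p = 1.51e-08). FBLN2, a fibulin that binds laminin and nidogen, had 1 count over the control libraries and 433 after vemurafenib, a ratio of 417 with a 95% exact interval of 74.5 to 16511, and 2 counts after cisplatin. That interval covers counting error only and not the spread between libraries, which read 9.15 ± 4.20 CPM after vemurafenib (SD, n = 3). COL17A1, the hemidesmosomal collagen that ITGB4 binds, rose after cisplatin (3.99, SE 0.53, adjusted p = 9.24e-05) and was lower after vemurafenib than after cisplatin (-5.53, SE 0.62). Its levels were 0.808 ± 0.412 CPM in control, 0.268 ± 0.253 after vemurafenib and 12.9 ± 7.28 after cisplatin. SMOC1, a secreted calcium-binding protein of the basement membrane, fell after vemurafenib (-2.80, SE 0.33) and was lower there than after cisplatin (-3.33, SE 0.33). After cisplatin FBLN1, a fibulin (-2.36, SE 0.22), and FRAS1 (-1.95, SE 0.35) fell.

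Laminin receptors other than integrins gave 8 higher (42.1%) and 3 lower (15.8%) of 19 tested in vemurafenib libraries, where all genes gave 22% and 22.9%. Cisplatin gave 5 higher (26.3%) and 6 lower (31.6%), near the 22.7% and 23.5% of all genes. From drug to drug there were 10 higher (52.6%) and 3 lower (15.8%), against 23% and 20.8%, and the medians were 0.28, 0.09 and 0.26. SGCD, a sarcoglycan (4.42, SE 0.41), and DMD, dystrophin (2.21, SE 0.27), both of the dystroglycan complex, rose after vemurafenib. Both were higher after vemurafenib than after cisplatin (2.16, SE 0.32, and 2.12, SE 0.27). After cisplatin the syndecan SDC2 rose (1.76, SE 0.16), and SDC4 (-1.18, SE 0.14) and SDC1 (-1.09, SE 0.18), also syndecans, fell.

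Ligands of integrins other than laminins gave 9 higher and 9 lower of 30 tested in vemurafenib libraries (30% each, where all genes gave 22% and 22.9%). Cisplatin gave 10 higher (33.3%) and 8 lower (26.7%), against 22.7% and 23.5% of all genes. From drug to drug there were 8 higher (26.7%) and 6 lower (20%), near the 23% and 20.8% of all genes, and the medians were 0.04, 0.06 and -0.16. FN1, fibronectin, the ligand of the ITGA5 receptor, read 1130 ± 247 CPM in control, 751 ± 178 after vemurafenib and 129 ± 11.3 after cisplatin (SD, n = 3). It fell after cisplatin (-3.14, SE 0.21, adjusted p = 3.89e-07) and was higher after vemurafenib than after cisplatin (2.55, SE 0.20, adjusted p = 1.7e-06). POSTN, periostin, a ligand of ITGAV integrins, rose after vemurafenib (4.94, SE 0.37), as did CCN3, listed as NOV (4.05, SE 0.26), and POSTN was also higher there than after cisplatin (4.35, SE 0.35). THBS1, thrombospondin, was higher after vemurafenib than after cisplatin (2.61, SE 0.19). JAM2, a junction protein bound by ITGA4, fell after vemurafenib (-2.36, SE 0.36) and cisplatin (-3.51, SE 0.41), and FBLN5, a fibulin of elastic fibres, rose after cisplatin (2.01, SE 0.23).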

How the data were processed

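RNA-seq of A375 cells was read from 1 table of 18430 genes and 9 libraries (3 groups of 3). For alignment, the submitters' processing notes name HISAT2 2.0.4 and the build hg38. Counting tool, annotation and strand setting were not given in the sources used here. Deposited values were the authors' estimated counts (13.6 to 14.1% of values not whole within 1e-06), the authors' TPM and the authors' FPKM. The counts were rounded and fitted with edgeR 4.0.16 (R 4.3.3): filterByExpr, TMM and a quasi-likelihood fit of group means over all 9 libraries (6 residual degrees of freedom, common biological coefficient of variation 0.139), with Benjamini-Hochberg adjustment at 0.05 over 13989 genes. The standard error is the log2 change divided by the square root of F. CPM are TMM-scaled, and TPM and FPKM entered limma 3.58.1 only as alternatives. Effective lengths were derived from the deposited counts, the library totals and FPKM, as the median over the libraries in which the gene had 20 counts or more. Symbols that the table had turned into dates (26) were restored by gene identifier, and all 38 members matched RefSeq.

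Members and lists were chosen with earlier results of these data known. Values in every library are given for members called in at least 1 comparison with a log2 change of 1 or more in size, and for ITGB1 and ITGAV. 1 tested laminin chain and a few partner genes enter the counts but are not reported here. Outside the family at most 3 called genes per list and comparison are named, those that changed most and averaged 50 counts or more in their higher group. Of the marker lists, keratinocytes (5 of 6 genes in the table) summed to 18.9 to 22.9 CPM in control, 16.2 to 25.8 after vemurafenib and 18.5 to 23.0 after cisplatin, and platelets (2 of 5) to 2.09 to 2.44, 1.04 to 2.49 and 3.26 to 3.80. Melanocyte lineage genes (8 of 8) summed to 1033 to 1185, 1507 to 1873 and 990 to 1038 CPM.

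Same-numbered vemurafenib and control libraries deviated together from their group means (correlations 0.18, 0.14 and 0.18). Cisplatin and control gave 0.21, 0.08 and 0.13, and vemurafenib and cisplatin 0.17, 0.01 and 0.10. No label says what a number marks, and the main fit did not pair the libraries by it in any comparison. The replicate number entered only as a block in an alternative fit. Alternatives were DESeq2 1.42.0, other scalings and filters, the limma fits, the 2 groups alone, the replicate block and each library left out.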

Additional observations from a re-analysis of the deposited data

How the results depend on the processing

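For each comparison 20 alternatives were run, and no member's called change turned its sign. After vemurafenib against control the counts of members kept within 1.5 times under every alternative: 4 to 5 higher and 14 to 18 lower. After cisplatin 3 were higher in the log2(TPM + 1) fits with and without the low-value filter, against 5, and 5 were lower in the fit without the filter, against 9; the cause was not tested. Leaving out 1 library gave 4 to 6 higher and 7 to 13 lower there. Between the drugs the counts ran from 4 to 6 higher and 13 to 17 lower. With the replicate block, vemurafenib gave 5 members higher and 18 lower, cisplatin 5 and 11 (ITGA9, adjusted p = 0.0345, and LAMC1, 0.038, joined), and 5 and 16 between the drugs (ITGA6, 0.0296, and ITGB1, 0.0372, joined). In all 3 comparisons the labels give the libraries only a shared number. Between control and either drug, each library correlated best with its own number. Between the drugs, vemurafenib replicate 2 and cisplatin replicate 3 correlated best with each other (0.14). Cisplatin replicate 2 correlated best with vemurafenib replicate 1 there (0.02, against 0.01 with its own number). The block changed no other call than these and that of LAMA4 among the members. Over all 31 tested members, 589 of 618 values stayed on their side of the threshold after vemurafenib, 562 of 618 after cisplatin and 594 of 616 between the drugs. Calls were lost in 24, 37 and 10 values and gained in 5, 19 and 12. The ITGAM, ITGB7 and LAMC3 values rest on few counts.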

Other observations

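ITGA1 (chr5:52787916-52959209) and ITGA2 (chr5:52989352-53094779) lie next to each other in the genome (RefSeq, GRCh38.p14), and after vemurafenib ITGA1 changed by -3.44 (adjusted p = 7.07e-07) while the value for ITGA2 was -0.47 (adjusted p = 0.281), -0.12 without vemurafenib replicate 1 (adjusted p = 0.657), and past the threshold without replicate 2 (adjusted p = 0.0237). Whether the pair differed was not tested.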
